A study of Homo sapiens with 6 samples.

Results

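The 31 genes described here are established targets that the tumour suppressor p53 activates, taken as a named list of symbols and matched to the deposited counts through GENCODE 29. All 31 matched 1 Ensembl gene each, out of 58051 genes in the table, and 29 of them had enough counts to be tested. The cells were OE33, an established line of human oesophageal adenocarcinoma. A first group of 3 cultures was exposed to 15 µM APX2009, a compound made to block the redox function of APE1, for 24 h, and a second group of 3 cultures was untreated. No vehicle is named for the untreated cells, and all 6 libraries come from a single line. The comparison shows how treated cells of this line differed from untreated ones. It cannot tell an effect of the compound from that of a solvent given with it, or show which part depends on APE1.

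p53 is a transcription factor that is held at a low level by the ubiquitin ligase MDM2 and accumulates after DNA damage and other stress. It binds a pair of short core sequences in its targets and activates genes of growth arrest, DNA repair, metabolism and cell death, along with several of its own inhibitors, which closes a feedback loop. APE1, also called Ref-1, is known to reduce cysteines of several transcription factors, p53 among them, and thereby to help them bind DNA.

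The p53 targets did not move together. Of the 29 tested, 6 had higher transcripts in APX2009-treated cells (TP53INP1, GDF15, TP53I3, ZMAT3, PLK2 and GADD45A), 7 had lower transcripts (DDB2, FDXR, POLH, PANK1, PLK3, PERP and AEN), and 16 did not pass the test, MDM2 among them. A gene is said to rise, fall or change at an adjusted p under 0.05 in edgeR's quasi-likelihood test (Benjamini-Hochberg adjustment over all 14773 genes tested). These 13 genes make up 44.8% of the tested targets, beside 34.7% called over all genes tested. Higher transcripts were called for 20.7% of the tested targets against 17.2% of all genes, and lower transcripts for 24.1% against 17.4%. The median log2 change of the targets was 0.04, and that of all genes was 0.02. In bulk RNA, a change in every cell and a change in part of the cells cannot be told apart.

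**Figure D1:**
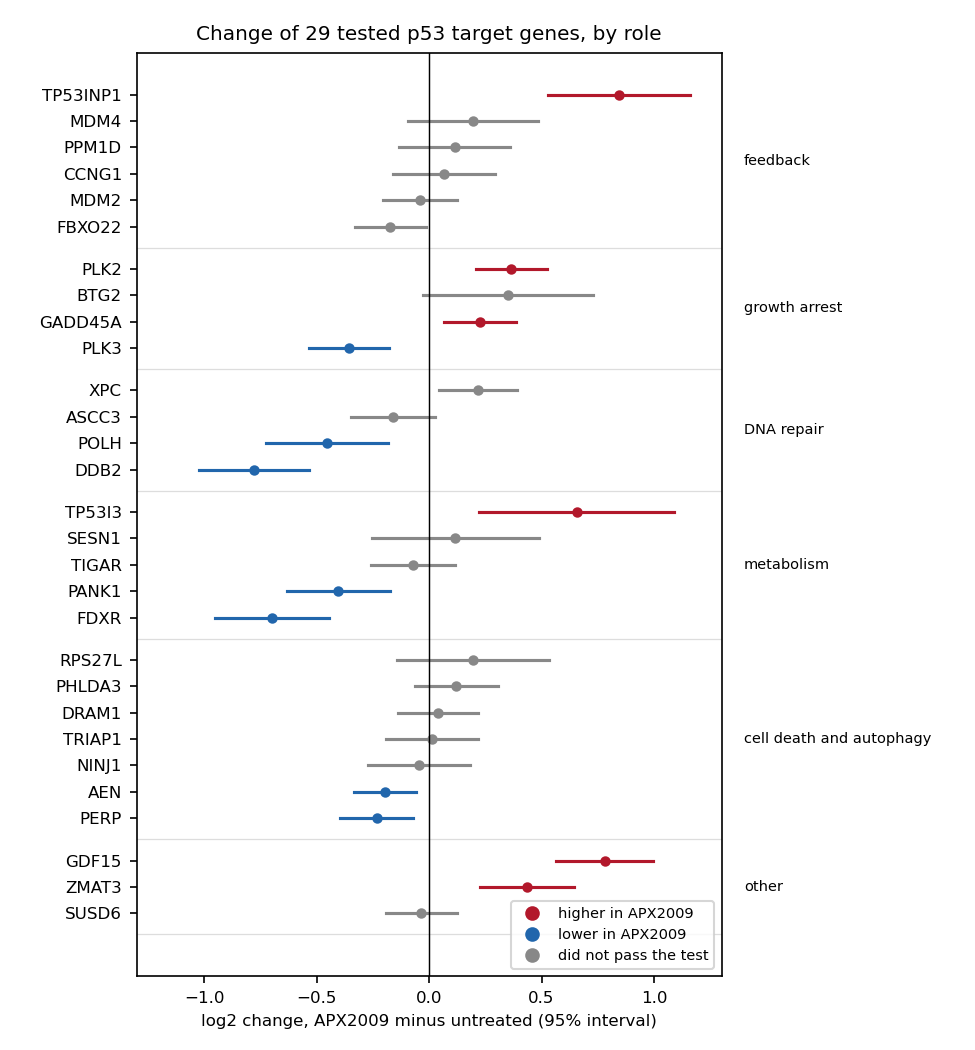
Log2 change (APX2009 minus untreated, horizontal axis) of the 29 tested p53 target genes, grouped by role on the vertical axis; points are edgeR estimates from 3 libraries per group and lines their 95% intervals. Genes that passed the test lie on either side of 0, from DDB2 at -0.78 to TP53INP1 at 0.84, and MDM2 lies at -0.04.

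A pair of cores of the kind p53 binds stood in the promoters of 7 of the 26 targets with a window in the RefSeq promoter table (26.9%), against 5.85% of 27305 genes with such a window. The bases around the cores were left free, so the pattern is looser than the full sequence that p53 recognises. The list holds established p53 targets, so its higher share follows from how it was made and is no result of these data. Windows run from 250 bases before to 50 bases after the start of transcription (GRCh38.p14). The pattern searched was a core, any 6 bases and a second core, where a core is CNNG with A or T at each of its inner places; the set of cores is its own reverse complement, so a single pass reads both strands. All 7 matches are shown: 1 gene rose, 2 fell and 4 did not pass the test. Capitals mark the cores, each strand is that of the gene, and 3 flanking bases stand on either side.
GDF15 (higher; chr19:18386186-18386205, plus strand): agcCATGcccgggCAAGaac
AEN (lower; chr15:88621306-88621325, plus strand): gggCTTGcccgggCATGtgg
PANK1 (lower; chr10:89645297-89645316, minus strand): gaaCTTGattcccCATGttg
MDM4 (did not pass; chr1:204516186-204516205, plus strand): tcaCAAGaccctgCAAGtcc
RPS27L (did not pass; chr15:63157527-63157546, minus strand): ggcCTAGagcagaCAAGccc
SESN1 (did not pass; chr6:109009018-109009037, minus strand): ggaCAAGtctccaCAAGtca
TRIAP1 (did not pass; chr12:120446337-120446356, minus strand): aggCATGcacggaCATGaag

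With 7 bases between the cores, a spacing added after the sequences had been read, 3 of the 26 targets matched (11.5%), against 6.23% of all genes with a window. These were MDM2 and RPS27L, which did not pass the test, and DDB2, which fell. Only the DDB2 site is shown, picked with the result known because DDB2 fell most among the targets. Whether the site has a part in that fall was not tested.
DDB2 (lower; chr11:47214979-47214999, plus strand): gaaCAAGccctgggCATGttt

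Among the 7 genes with a 6-base spacing, GDF15 rose, AEN and PANK1 fell, and MDM4, RPS27L, SESN1 and TRIAP1 did not pass the test. A match is a description of letters in this window; p53 binding was not measured, and many p53 sites lie in introns outside it. No window was at hand for TP53INP1, FBXO22, GADD45A, ASCC3 and PHLDA3.

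The libraries held 26111656, 22486741 and 21158750 gene counts in treated cells and 22443569, 25093753 and 22601491 in untreated cells. Levels are given as CPM, counts scaled by the library size after adjustment by TMM, a method that evens out differences in library composition. A tested target had between 60 and 31153 counts in a library. Over the tested targets the median coefficient of variation was 8.87% in treated and 5.16% in untreated cells. The mRNA of APEX1, which codes for APE1, did not pass the test, with 166.1, 173.2 and 179.5 CPM in treated and 180.4, 184.0 and 177.1 CPM in untreated cells; the compound acts on the protein, so this mRNA is no check of the labels.

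The level of the targets, per kilobase of exon, spanned a wide range. The length used was that of all annotated exons of a gene merged, such as 13284 bases for MDM2 and 9127 for RPS27L. It can exceed the length of the transcripts present, so the order of genes is approximate. In treated cells GDF15 stood at 624.3 ± 85.9 CPM per kb and in untreated cells at 363.3 ± 12.4 (SD, n = 3 each), above all other targets in either group. PERP, GADD45A, PHLDA3, PLK2 and TRIAP1 followed in that order in both groups, from 54.6 to 15.1 CPM per kb in treated and from 64.1 to 14.9 in untreated cells. MDM2 was 13th of 31, at 5.49 ± 0.33 CPM per kb in treated and 5.65 ± 0.40 in untreated cells. From SUSD6, the 12th, through MDM2, CCNG1, DRAM1 and FDXR to TIGAR, the 17th in untreated cells, each gene's values overlapped those of the next in untreated cells. SESN1, at 0.649 CPM per kb in treated and 0.599 in untreated cells, was the lowest of the tested targets.

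Neither of the remaining targets was detected above the limit of counting. SPATA18, which acts in the quality control of mitochondria, had no count in any library. EDA2R, a receptor of the tumour necrosis factor family, had 1 count, in the first treated library. A count of 0 allows up to 3 counts, which is 0.112 to 0.144 CPM in the treated and 0.120 to 0.134 CPM in the untreated libraries; this limit covers counting error only.

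Of the 6 tested targets whose products feed back on the p53 pathway, TP53INP1 passed the test, and MDM2, MDM4, PPM1D, CCNG1 and FBXO22 did not (16.7% called, against 34.7% of all genes). These 6 genes are too few to set against that share. MDM2, the ubiquitin ligase that marks p53 for degradation (ENSG00000135679, chromosome 12, 68808176 to 68850686), had 77.5, 72.5 and 68.8 CPM in treated cells, against 68.9, 79.0 and 77.3 CPM in untreated cells. The ranges overlap almost fully. Its log2 change was -0.04 ± 0.07 (SE), with a 95% interval from -0.21 to 0.12 (edgeR adjusted p = 0.705). MDM4, a relative of MDM2 that blocks the activation domain of p53, had 37.8, 28.0 and 25.7 CPM in treated and 25.4, 26.6 and 28.1 CPM in untreated cells, so that only the first treated library lay above the untreated range. PPM1D, a phosphatase that removes damage-induced phosphates from p53 and its kinases, had a log2 change of 0.11 (95% interval -0.13 to 0.36). CCNG1, the cyclin G1 gene, had a log2 change of 0.07, with an interval from -0.16 to 0.29. FBXO22, a substrate receptor of a ubiquitin ligase, had 28.1, 27.2 and 25.5 CPM in treated cells, all below the 30.0, 30.1 and 31.01 CPM of untreated cells, but did not pass over all genes (log2 change -0.17; edgeR adjusted p = 0.0844).

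TP53INP1, a stress-induced protein that promotes the phosphorylation of p53 and takes part in autophagy (ENSG00000164938, chromosome 8, 94925972 to 94949411), showed the largest rise among the targets in fold terms. It had 8.76, 6.80 and 7.04 CPM in treated cells, against 4.29, 4.06 and 4.27 CPM in untreated cells. All treated libraries lay above all untreated ones, and the first treated library was highest. The log2 change was 0.84 ± 0.14 (SE), a 1.79-fold rise (edgeR adjusted p = 0.00132).

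The genes of growth arrest and stress signalling split, and the split ran through a pair of related kinases. PLK2, a polo-like kinase induced by stress (ENSG00000145632, chromosome 5, 58453982 to 58460260), had 98.4, 99.6 and 112.2 CPM in treated cells, against 83.7, 78.2 and 78.7 CPM in untreated cells. Its relative PLK3 (ENSG00000173846, chromosome 1, 44800225 to 44805990) had 20.2, 22.9 and 21.6 CPM in treated cells, against 28.3, 28.2 and 26.1 CPM in untreated cells. The groups did not overlap for either gene, and the directions were opposite. PLK2 rose by 0.37 ± 0.07 on the log2 scale (SE; edgeR adjusted p = 0.00284) and PLK3 fell by 0.35 ± 0.08 (edgeR adjusted p = 0.00685).

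GADD45A, which binds PCNA and restrains the mitotic kinase CDK1, had 87.5, 77.5 and 87.9 CPM in treated cells, against 76.4, 69.6 and 70.3 CPM in untreated cells. The second treated library lay just above the highest untreated one. The rise was 1.17-fold (log2 change 0.23 ± 0.07; edgeR adjusted p = 0.0343). BTG2, an antiproliferative gene, had 4.23, 3.07 and 3.88 CPM in treated and 3.09, 2.77 and 2.94 CPM in untreated cells. Its log2 change of 0.35 did not pass, and its 95% interval of -0.03 to 0.73 was the only one among the 16 uncalled targets that reached past a 1.5-fold change, 0.585 on this scale.

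Of 4 DNA repair genes DDB2 and POLH fell, and XPC and ASCC3 did not pass; over all genes tested, 17.4% fell, and 4 genes are too few to set against that share. DDB2, which recognises ultraviolet lesions for nucleotide excision repair (ENSG00000134574, chromosome 11, 47214465 to 47239240), had 9.51, 11.5 and 10.8 CPM in treated cells, against 19.7, 16.4 and 18.4 CPM in untreated cells. Every treated library was well below every untreated one. The log2 change was -0.78 ± 0.11 (SE), or 1.71-fold lower in treated cells (edgeR adjusted p = 4.75e-04). POLH, the polymerase that copies past such lesions, was also lower in all treated libraries, at 6.59, 6.09 and 5.56 CPM in treated and 8.36, 8.80 and 7.87 CPM in untreated cells (log2 change -0.45 ± 0.12; edgeR adjusted p = 0.0158).

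XPC, the other damage sensor of this repair pathway, went the opposite way to DDB2 without passing the test. It had 43.1, 51.9 and 49.4 CPM in treated cells, against 40.5, 40.8 and 42.8 CPM in untreated cells. The groups did not overlap, and the log2 change was 0.22 ± 0.08 (edgeR adjusted p = 0.0544). XPC shares 23.8% of its exon length with an antisense gene, and the strand setting of the counting is not given. Reads in that shared part cannot be told apart from those of the partner. Among other targets, FBXO22 shares 16.2% with a gene on the opposite strand and PHLDA3 19.1% with one on the same strand. ASCC3, a helicase of alkylation repair, had a log2 change of -0.16 that did not pass (edgeR adjusted p = 0.170).

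**Figure D2:**
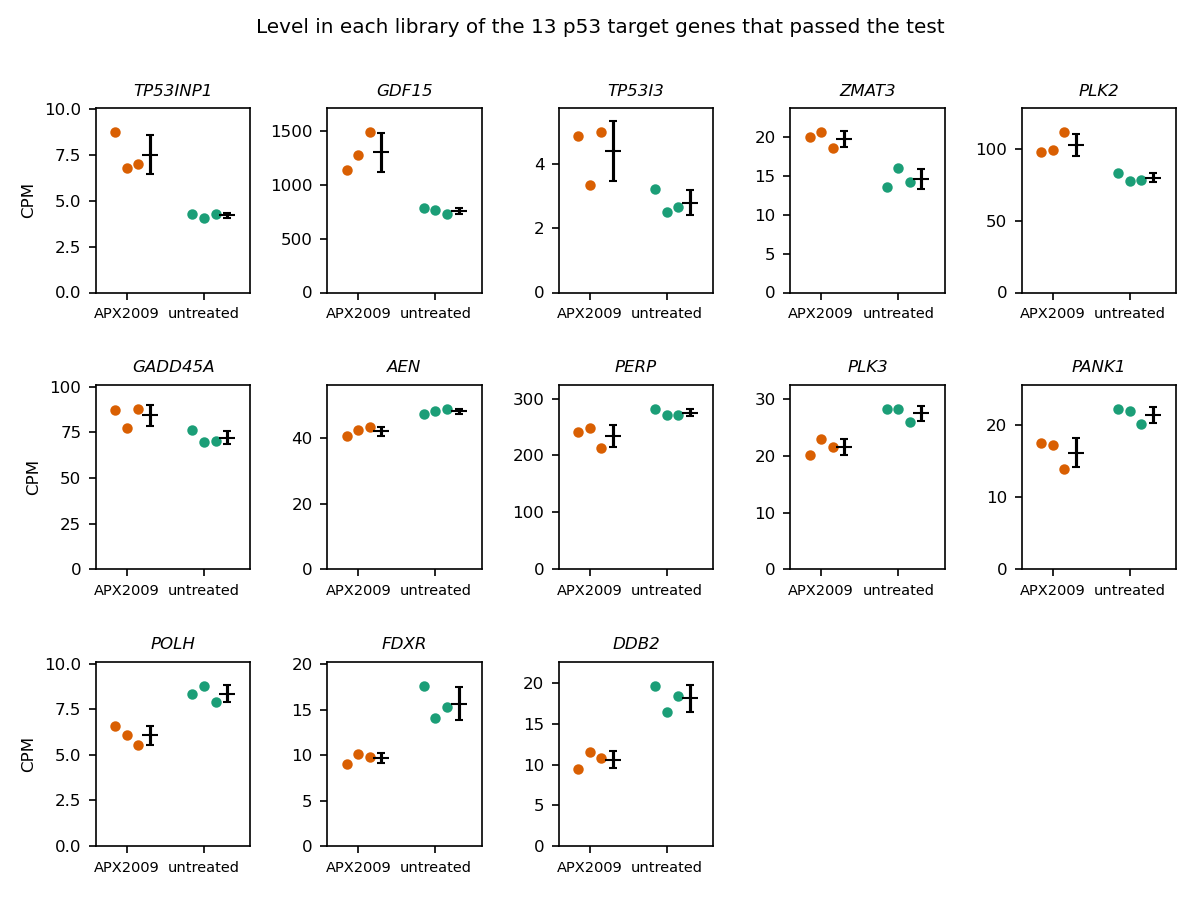
CPM (vertical axis, from 0, a separate scale per gene) in each of 3 APX2009 and 3 untreated libraries for the 13 p53 target genes that passed the test, ordered from the largest rise to the largest fall; bars are mean ± SD. The groups do not overlap in any of the 13 genes, from TP53INP1, 1.79-fold higher, to DDB2, 1.71-fold lower in treated cells.

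The metabolic targets held a fall and a rise of similar size. FDXR, the mitochondrial reductase that passes electrons to ferredoxins (ENSG00000161513, chromosome 17, 74862497 to 74873031), had 9.03, 10.1 and 9.82 CPM in treated cells, against 17.7, 14.1 and 15.3 CPM in untreated cells. The treated values lay close together and all below the untreated ones. The log2 change was -0.70 ± 0.11 (SE), or 1.62-fold lower (edgeR adjusted p = 0.00106). PANK1, a pantothenate kinase of coenzyme A synthesis, was 1.32-fold lower, with 17.5, 17.1 and 13.8 CPM in treated and 22.2, 21.8 and 20.1 CPM in untreated cells (edgeR adjusted p = 0.0126).

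TP53I3, which codes for an enzyme related to quinone reductases, rose 1.58-fold. It had 4.87, 3.33 and 4.98 CPM in treated cells, against 3.22, 2.49 and 2.67 CPM in untreated cells, and the second treated library lay just above the highest untreated one (log2 change 0.66 ± 0.20; edgeR adjusted p = 0.0254). SESN1, a stress-induced restraint on growth signalling through mTORC1, had a log2 change of 0.12 (95% interval -0.25 to 0.49). TIGAR, a phosphatase that lowers glycolytic flux, had a log2 change of -0.07 (95% interval -0.26 to 0.12); 42.6% of its exon length is shared with another gene on the same strand, so its count is uncertain.

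Targets of this list that act in cell death and autophagy had a median absolute log2 change of 0.12, the smallest of any role, beside 0.14 for feedback. Of 7 tested, 2 fell and none rose, so that 28.6% were called, against 34.7% of all genes. These 7 genes are too few to set against that share. Other cell death targets stand in the second list described below, where BAX and APAF1 rose and FAS and BBC3 fell, so the small changes here do not describe cell death targets as a whole. PERP, a membrane protein of desmosomes linked to p53-dependent cell death, had 241.7, 247.6 and 213.0 CPM in treated cells, against 281.9, 271.9 and 271.1 CPM in untreated cells (log2 change -0.23 ± 0.07; edgeR adjusted p = 0.0321). AEN, a nuclease induced in apoptosis, had 40.6, 42.3 and 43.3 CPM in treated cells, against 47.3, 48.2 and 48.9 CPM in untreated cells (log2 change -0.20 ± 0.06; edgeR adjusted p = 0.0317). The groups did not overlap for either, and the differences were 1.17-fold and 1.14-fold. The AEN call was lost with DESeq2.

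The other 5 tested genes of cell death and autophagy did not pass. The Akt repressor gene PHLDA3 had a log2 change of 0.12, the ribosomal protein gene RPS27L 0.19, the autophagy gene DRAM1 0.04, the apoptosis inhibitor gene TRIAP1 0.01 and NINJ1, whose product acts in the rupture of the plasma membrane, -0.05. For all 5, the 95% interval lay within a 1.5-fold change either way, as it did for 15 of the 16 uncalled targets. RPS27L had 15.5 CPM in the first treated library, beside 10.8 and 11.2 in the other treated and 10.1, 10.3 and 12.4 CPM in the untreated ones; it has a close relative, RPS27, with which reads may be shared.

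GDF15, a secreted stress cytokine of the TGF-beta family (ENSG00000130513, chromosome 19, 18374731 to 18389176), was the most abundant target and had the smallest p among them. It reached 1136, 1281 and 1492 CPM in treated cells, against 781.3, 763.4 and 730.1 CPM in untreated cells. The treated libraries differed among themselves by more than the untreated ones, and all lay above them. The log2 change was 0.78 ± 0.10 (SE), a 1.72-fold rise (edgeR adjusted p = 2.17e-04). ZMAT3, a zinc finger protein that binds RNA, rose 1.35-fold, with 20.0, 20.7 and 18.6 CPM in treated and 13.6, 16.0 and 14.2 CPM in untreated cells (edgeR adjusted p = 0.00540). SUSD6, a membrane protein gene, had 30.8, 32.3 and 34.4 CPM in treated and 33.4, 34.1 and 32.1 CPM in untreated cells and did not pass (log2 change -0.03).

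**Figure D3:**
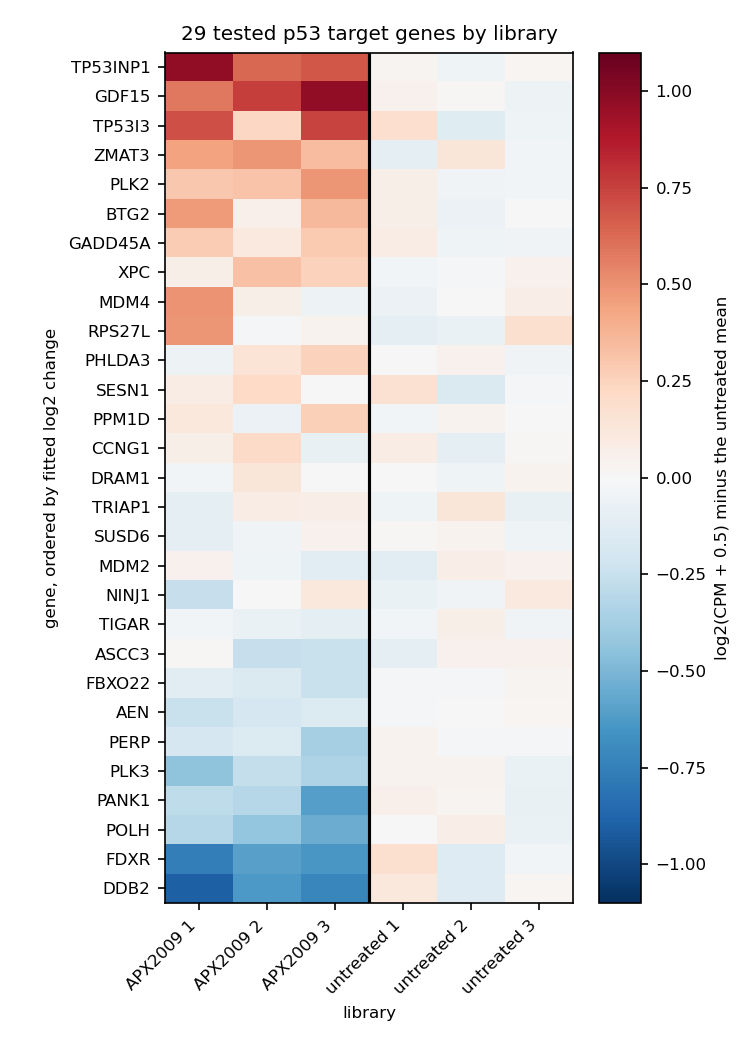
Difference of log2(CPM + 0.5) from the untreated mean, as colour (red higher, blue lower), for the 29 tested p53 target genes (rows, ordered by fitted log2 change) in each library (columns, APX2009 left of untreated). The 3 treated columns agree in sign for the genes at the top and at the bottom and differ from each other in the middle rows, where MDM4 and RPS27L are high in APX2009 replicate 1.

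Of the 29 tested targets, 15 had groups that did not overlap (51.7%), against 49.4% of all genes tested, 7 of them with treated values above (24.5% of all genes) and 8 below (25% of all genes). All 13 changed genes were among the 15, and the other 2 were XPC and FBXO22. Changes of at least 1.5-fold that passed the test were found for 5 of 29 targets (17.2%), against 12.4% of all genes tested; these were TP53INP1, GDF15 and TP53I3, higher, and DDB2 and FDXR, lower. In treated libraries 1, 2 and 3 the number of tested targets above their untreated mean was 15, 14 and 16 of 29, on the scale of log2(CPM + 0.5). In untreated libraries it was 16, 13 and 13. The median difference of the targets from their untreated mean was 0.01, -0.01 and 0.01 in treated libraries 1, 2 and 3.

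The number of calls depended on the libraries used, over all genes as well as among the targets. Of all genes tested, 34.7% were called with all 6 libraries. The share was 27.2%, 24.1% and 23.1% without untreated replicate 1, 2 or 3. It was 38.1%, 30.4% and 31.5% without APX2009 replicate 1, 2 or 3. Without untreated replicate 2, 7 targets were called in place of 13, with GADD45A, POLH, TP53I3, PANK1, AEN and PERP lost, and the number of lower targets was 3; without untreated replicate 1 it was 4. Single calls were also lost without untreated replicate 1 (PANK1, AEN and PERP), untreated replicate 3 (GADD45A, TP53I3, AEN and PERP), APX2009 replicate 1 (TP53I3), APX2009 replicate 2 (AEN) and APX2009 replicate 3 (GADD45A, TP53I3 and PERP). Without APX2009 replicate 1, FBXO22, XPC, ASCC3 and PHLDA3 were called in addition. TP53INP1, PLK2, PLK3, DDB2, FDXR, GDF15 and ZMAT3 were called whichever library was left out. Scaling by the total of the ERCC spike-ins in place of TMM left 0 targets called by edgeR and 0 at an unadjusted p under 0.05, against 13 and 15 with TMM. Under the spike-in scaling the log2 changes of GDF15 and DDB2 were 0.79 and -0.75, that of PERP shrank to -0.14, and that of MDM2 was 0.06; the share of spike-in counts ran from 0.315% to 0.752% in treated and from 0.480% to 0.564% in untreated libraries, and its part in the lost calls was not tested.

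Of 20 tested regulators and cofactors of p53, 6 fell (30%, against 17.4% of all genes) and 2 rose (10%, against 17.2%), with a median log2 change of -0.08. CDKN2A, whose locus codes for the cell cycle inhibitor p16 and for the MDM2 antagonist ARF, fell to 308.5 ± 3.71 CPM in treated cells, against 390.7 ± 12.0 CPM in untreated cells (SD, n = 3; edgeR adjusted p = 0.00208); counts per gene do not separate its products. The checkpoint kinase genes CHEK1 and ATR and the acetyltransferase gene KAT5 were lower, with log2 changes of -0.48, -0.28 and -0.29. RPL5, a ribosomal protein that can bind MDM2, and COP1, a ubiquitin ligase for p53, were higher, with log2 changes of 0.39 and 0.29. RCHY1, another ubiquitin ligase for p53, is named here after its values were seen. It was lower, with a log2 change of -0.43 (edgeR adjusted p = 0.0413), though its groups overlapped and the call was lost with total counts. The number of lower regulators was 3 without APX2009 replicate 3, untreated replicate 1 or untreated replicate 2, and that of higher ones 1 without APX2009 replicate 2, untreated replicate 1 or untreated replicate 3. COP1 was not called without APX2009 replicate 2 or 3 or untreated replicate 1 or 3, CHEK1 without untreated replicate 1, ATR without APX2009 replicate 3 or untreated replicate 2 or 3, and KAT5 without APX2009 replicate 2 or untreated replicate 1 or 2.

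The relatives of p53, which can bind similar sites, are named here after their values were seen. TP73 had 5.36, 9.60 and 6.56 CPM in treated and 13.2, 10.6 and 10.2 CPM in untreated cells, with a log2 change of -0.67 ± 0.20 (edgeR adjusted p = 0.0260), a call lost without APX2009 replicate 3 or untreated replicate 1 or 2. TP63 was too low to be tested, at 0.144 to 0.222 CPM in treated and 0.0890 to 0.201 CPM in untreated cells.

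A second list of p53 targets, also put together with earlier results of these data known, held changes in both directions. Of 23 tested, 8 rose and 8 fell, 69.6% called, beside 34.7% of all genes, a difference that was not tested, with a median log2 change of 0.00 and a median absolute change of 0.38; the median absolute change was 0.20 for the targets above and 0.25 for all genes. Without untreated replicate 2 the number of lower genes in this second list was 5. CDKN1A, which codes for the cell cycle inhibitor p21, had 101.6, 111.1 and 139.1 CPM in treated cells, against 83.4, 89.5 and 90.5 CPM in untreated cells, with no overlap (log2 change 0.42 ± 0.11; edgeR adjusted p = 0.0120). SFN, the 14-3-3 sigma gene of the G2 checkpoint, rose 2.16-fold to 138.8 ± 20.8 CPM in treated cells, against 64.2 ± 2.89 CPM in untreated cells (SD, n = 3; edgeR adjusted p = 2.60e-05). AIFM2, an oxidoreductase that protects membranes from lipid peroxidation, rose 1.90-fold, and BAX, which permeabilises the outer mitochondrial membrane, rose 1.35-fold. KITLG, the ligand of the receptor KIT, rose 1.36-fold, while the lipid transporter gene ABCA12 and the tetraspanin gene CD82 were 1.47-fold and 1.35-fold lower. Other genes are named here after their values were seen. The cell death genes FAS and BBC3 fell, with log2 changes of -0.43 and -0.30. APAF1 rose by 0.26, a call lost with DESeq2, and PMAIP1, TNFRSF10B and PIDD1 did not pass. Cell death targets of this list thus went in both directions. TRIM22 had the largest fall of the list, a log2 change of -0.99.

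**Figure D4:**
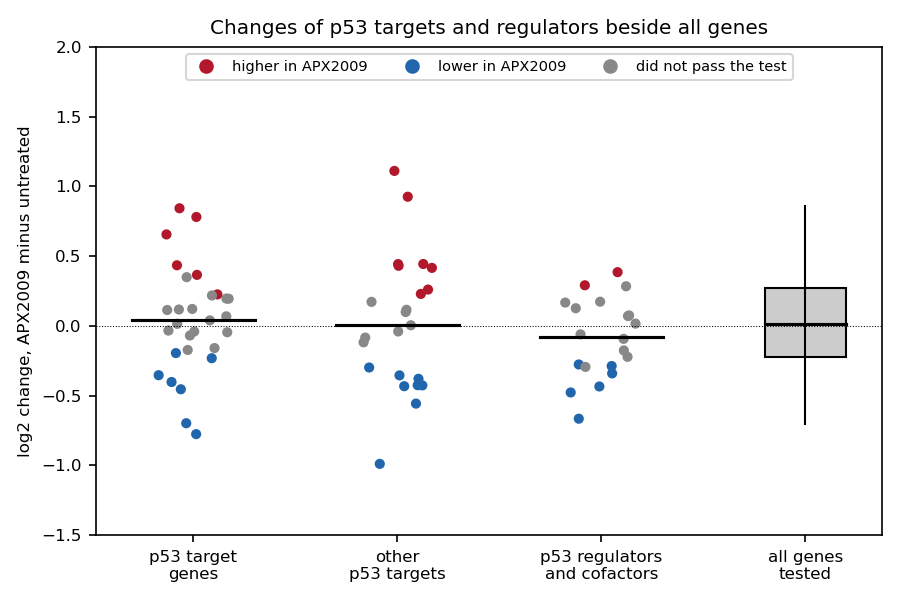
Log2 change (APX2009 minus untreated, vertical axis) of each tested gene in 3 lists, as points with the list median as a bar, beside all 14773 genes tested (box, 25% to 75%; line, 5% to 95%). The medians of 0.04, 0.00 and -0.08 lie near that of all genes, 0.02, and each list has called genes on either side of 0.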

How the data were processed

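Poly(A) RNA of 6 libraries was sequenced, and the authors deposited raw counts, not normalized, of 58051 Ensembl genes and 92 ERCC spike-ins. The submitters' processing notes name GRCh38, STAR 2.5.2b, Trimmomatic 0.36, Subread 1.5.2 and featureCounts; the annotation, strand setting and filters were not given in the sources used here. Symbols, positions and exon lengths came from GENCODE 29, which matched 57447 IDs; promoter sequences came from RefSeq (GRCh38.p14). ERCC counts were left out of library sizes. Genes were filtered with filterByExpr, scaled by TMM and tested with edgeR 4.0.16 (quasi-likelihood, treatment alone) in R 4.3.3, a procedure tested on simulated data. Standard errors and 95% intervals were derived from the F statistic. The series describes the replicates as independent biological ones. None agreed within sampling noise (chi-square per degree of freedom 3.06 to 30.0). Replicate 1 stood furthest from the others in both groups, at 26.8 and 30.0 in treated and 18.8 and 10.8 in untreated cells. Replicates 2 and 3 gave 4.93 in treated and 3.06 in untreated cells. The first treated library had a count for 25015 genes, against 21845 to 22446 in the other libraries. The members, roles, lists and rule for named genes (all members with a count, CDKN1A, APEX1, and the 6 smallest p of each other list) were chosen with earlier results of these data known; 1 gene of the rule and of the regulator list is not reported here and was left out of that list's counts. Alternatives included DESeq2 1.42.0 and limma 3.58.1 voom. Figures used matplotlib 3.10.9.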

Additional observations from a re-analysis of the deposited data

How the results depend on the processing

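The numbers of higher and lower targets (6 and 7) were 6 and 7 with RLE size factors and limma voom, 7 and 7 with total counts and with a filter of 1 CPM in 3 libraries, and 6 and 6 with DESeq2 and without a filter. With the replicate number as a block they were 7 and 6; replicate numbers deviated together only weakly (correlations 0.151, 0.0904 and 0.0270), so the samples were not treated as paired. At an adjusted p under 0.01 they were 4 and 3, those of the second target list 5 and 5, and those of the regulators 1 and 1; 20.7% of all genes passed. Leaving out each library in turn gave 4 to 7 higher and 3 to 9 lower targets, 6 to 7 and 5 to 8 in the second target list, and 1 to 2 and 3 to 6 regulators. In these fits 23.1% to 38.1% of all genes were called. With libraries scaled by the ERCC total, edgeR called 0 targets, 0 of the second list and 0 regulators in either direction (0, 1 and 0 at an unadjusted p under 0.05), and 0.921% of all genes, 129 higher and 7 lower (2543 and 2576 with TMM). The log2 change of GDF15 was then 0.79, of TP53INP1 0.98 and of DDB2 -0.75; the smaller falls shrank, to -0.30 for PANK1, -0.14 for AEN and -0.14 for PERP. Among targets not called, MDM4 and RPS27L reached 0.37 each, and MDM2, TIGAR and SUSD6 turned sign, to 0.06, 0.01 and 0.01. ERCC shares were 0.315%, 0.752% and 0.734% in treated and 0.553%, 0.480% and 0.564% in untreated libraries; the cause was not tested. No called gene turned direction under any alternative. Among the targets, AEN was the call lost with DESeq2, without a filter and with the replicate block. XPC was the call gained with total counts, with the filter of 1 CPM in 3 libraries and with the replicate block. Counts of 60 to 130 per library limit the precision of BTG2, SESN1 and TP53I3.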
